A study of Mus musculus with 6 samples.

Results

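The genes described here encode the subunits of the oxidative phosphorylation system, complexes I to V, in RNA-seq of mouse mammary tumour grafts with and without AXL. They were chosen by gene symbol among the protein-coding rows of the deposited differential expression table (Nduf followed by a, b, c, s or v and a number, Uqcr, Cox4 to Cox8, Atp5, Sdha to Sdhd, and the mitochondrially encoded mt-Nd, mt-Co, mt-Cytb and mt-Atp genes), which gave 98 genes of 39179 in all, 22740 of them protein-coding. Of these members 85 are encoded in the nucleus and 13 in the mitochondrial genome. Members were placed in complexes by symbol, except Ndufa4, which was placed in complex IV. Of the nuclear members 35 belong to complex I, 4 to complex II, 8 to III, 18 to IV and 16 to V. The mitochondrial genome adds 7, 1, 3 and 2 members to complexes I, III, IV and V. The remaining 4 matched genes, Ndufa4l2, Cox7a2l, Atp5s and Atp5sl, were kept apart because they are not core subunits of the complex their symbol names.

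The series compared grafts of MMTV-Neu tumour cells, mammary carcinoma cells driven by the Neu (Erbb2) oncogene under the mouse mammary tumour virus promoter. Both groups were grown in FVB mice: 3 libraries came from grafts of AXL+/+ cells (WT) and 3 from grafts of AXL-/- cells (AXL KO). AXL is a receptor tyrosine kinase, and the deletion was in the grafted cells, so host cells in the graft carry their own genotype. The labels do not state whether each group is 1 clone, how the allele was altered, or whether libraries of a group came from separate animals, so p-values measure the spread between these libraries, which may be technical. Axl reads did not separate the groups, at 70.2, 58.5 and 52.6 counts per 1000000 counts in genes (CPM) in WT and 48.2, 74 and 58.1 in AXL KO (log2 fold change -0.01 ± 0.16 (SE), edgeR quasi-likelihood adjusted p = 0.978). With the deleted part of the gene not stated, these counts do not check the labels, and the groups are named here by their labels alone.

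Complex I passes electrons from NADH, and complex II from succinate, to ubiquinone. Complex III hands them on through cytochrome c to complex IV, which reduces oxygen, while complexes I, III and IV pump the protons that drive ATP synthesis by complex V. The core proton-pumping subunits are in part encoded in mitochondrial DNA, whose heavy strand is transcribed as a long precursor and cut into single RNAs, so an assembled chain needs products of both genomes.

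The libraries held 26541009 to 32491807 counts in genes. Epithelial markers such as Epcam, Krt8, Krt18 and Erbb2 were abundant in every library. The 10 listed markers summed to 12017 to 13328 CPM in WT and 12134 to 14377 CPM in AXL KO. Most of this sum was Erbb2, at means of 7193 CPM in WT and 9207 in AXL KO. Of 9 tested markers 2 were called higher, Erbb2 (log2 fold change 0.36) and Esrp1 (0.56). Another 4 were called lower, Epcam (-0.53), Krt8 (-0.44), Krt18 (-0.60) and Cldn3 (-0.26). Sums of markers of other cells differed between the groups: T and NK cell markers summed to 9.83 to 13.7 CPM in WT and 35.3 to 42.6 in AXL KO, endothelial markers to 316 to 352 and 187 to 245, and erythroid markers to 647 to 1022 and 152 to 237. Macrophage markers split (1 of 10 called higher and 1 lower), fibroblast and pericyte sums overlapped (1955 to 3158 and 1408 to 2311 CPM, 4 of 10 called lower), and so did adipocyte sums (256 to 337 and 239 to 368 CPM). Fewer cells of a type and less RNA per cell cannot be told apart in such bulk samples, and the part of these cell types in the results below was not tested unless a value is given.

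Of 14850 genes tested in AXL KO against WT, 37.4% were called at an edgeR quasi-likelihood, Benjamini-Hochberg adjusted p under 0.05, 19.1% higher and 18.3% lower in AXL KO. Of the 98 members 92 had enough counts to be tested. In these 92, 1 was called higher, 21 were called lower and 70 were not called. The share called lower (22.8%) was near the 18.3% of all genes, whereas the share called higher (1.09%) lay far under the 19.1% of all genes. The 92 members had a median log2 fold change of -0.12, against 0.00 for all genes tested, with 66 negative and 26 positive values. The changes were small: 19 of the 22 called members differed by less than 1.5-fold. Every AXL KO library lay below every WT library in 32 tested members and above in 6, together 41.3%, and groups apart in this way made up 52.1% of all genes. In the authors' deposited table, which has an adjusted p for 94 members, 1 was higher and 23 were lower in AXL KO at the same threshold.

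**Figure D1:**
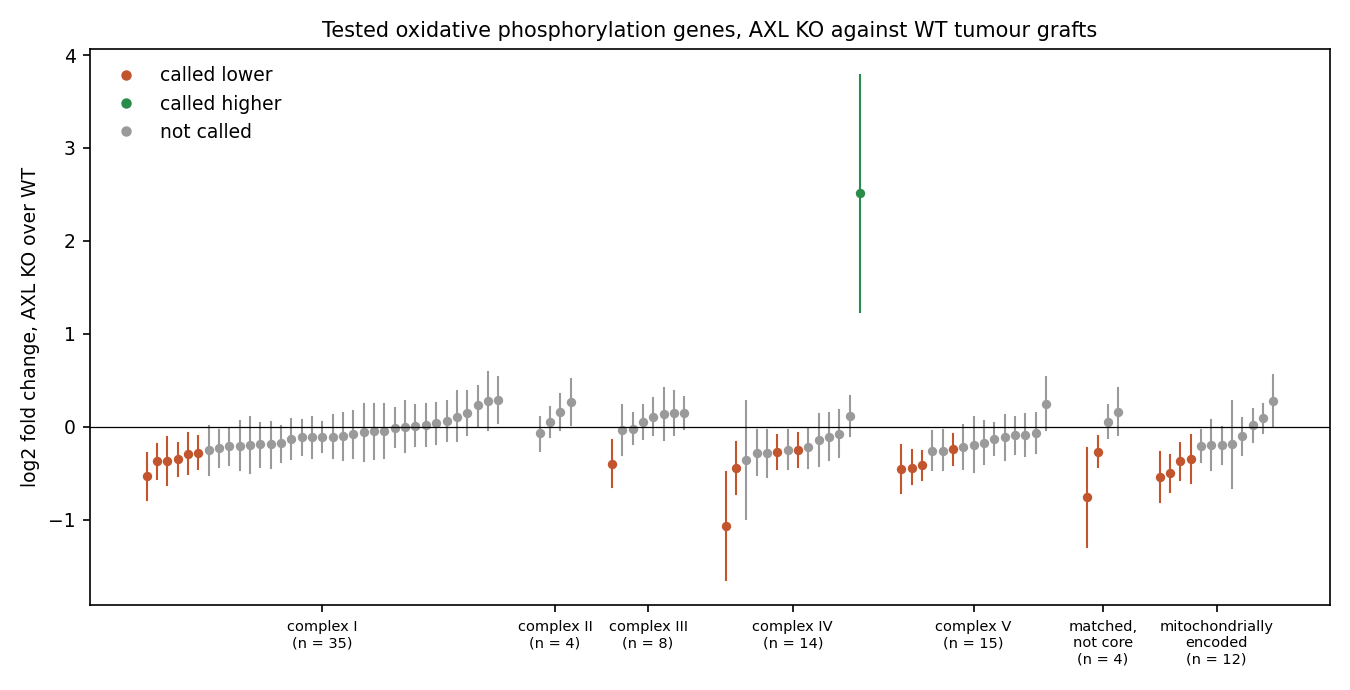
Log2 fold change (AXL KO over WT, vertical axis) of the 92 tested members, ordered by value within each complex. Points are edgeR estimates and bars their 95% confidence intervals over 3 libraries per group. Most points lie between 0 and -0.5, and Cox8b, at 2.51, is the only one called higher.

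One library bears on every nuclear count. WT 1 was the highest of the 6 libraries in 62 of the 80 tested nuclear members (77.5%), against 21.8% of all genes tested, and it lay above both other WT libraries in 76 of the 80 (95%, against 36.8% of all genes). The median ratio of WT 1 to the mean of WT 2 and WT 3 was 1.21 over the nuclear members and 0.991 over all genes. Without WT 1, 11 members were called higher and 14 lower of the same 92, where 18.1% of all genes were called higher and 17.4% lower. All 14 were among the 21 called lower with all libraries. The 10 newly called higher were Ndufa13, Ndufb6, Ndufs4, Ndufs6, Sdhb, Sdhd, Uqcr10, Uqcrh, Uqcrq and Atp5l. The 7 no longer called lower were Ndufb9, Ndufv2, Cox4i1, Cox8a, Atp5b, Ndufa4l2 and mt-Nd3. The median of the nuclear members moved from -0.11 to -0.03. Why WT 1 was high in these genes was not tested. Other libraries moved the count of members called lower as well: it was 30 without WT 2, 14 without WT 3, 11 without AXL KO 1, 17 without AXL KO 2 and 8 without AXL KO 3, with 1 called higher each time.

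**Figure D2:**
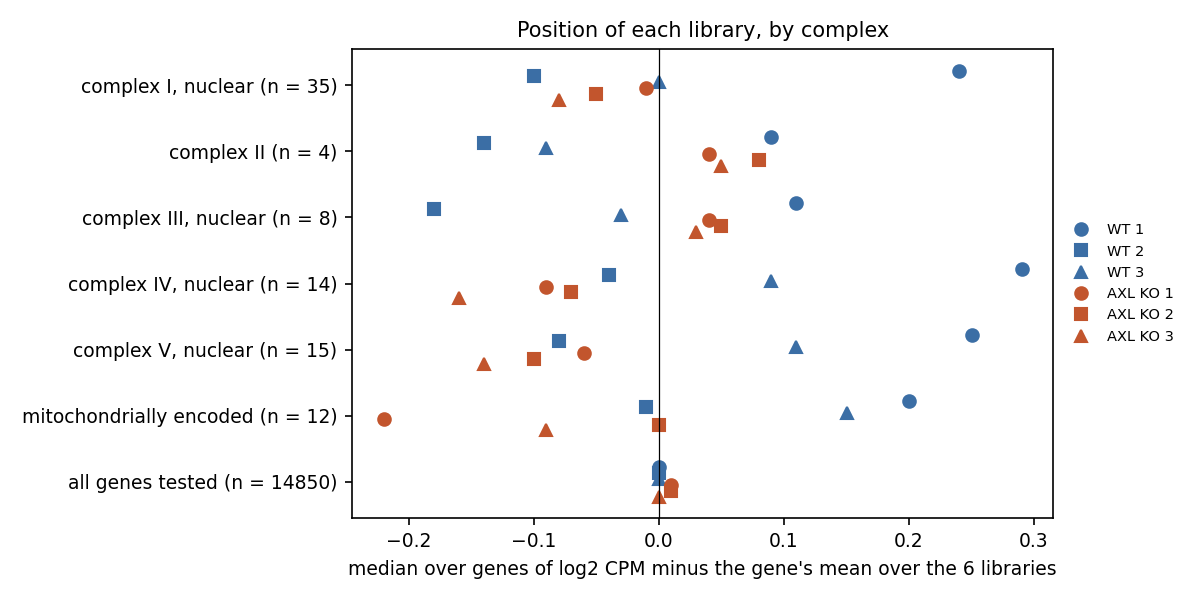
Median over the genes of each set (rows) of log2(CPM + 0.5) minus each gene's mean over the 6 libraries (horizontal axis). Blue symbols are WT and orange symbols AXL KO, with 1 symbol per library. WT 1 lies to the right of all other libraries in each nuclear complex, at 0.24 in complex I and 0.29 in complex IV, but at 0.00 over all genes.

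The chromosome a nuclear member lies on also moved with its result. This comparison was chosen after the values were seen. Of the 17 nuclear members called lower, 13 lie on chromosomes 10, 15 and 17, which hold 16 of the 80 tested. On chromosome 15 all 4 tested members were called lower (Atp5g2, Cox6c, Ndufa6 and Ndufb9), on chromosome 17 there were 5 of 6 (Ndufa11, Ndufb10, Ndufv2, Ndufv3 and Cox7a2l), and on chromosome 10 there were 4 of 6 (Atp5b, Atp5d, Uqcr11 and Ndufa4l2). The other genes of those chromosomes were lower too. The 564 other genes tested on chromosome 15 had a median log2 fold change of -0.29 with 42.4% called lower, the 742 on chromosome 17 had -0.26 and 41%, and the 683 on chromosome 10 had -0.19 and 31.5%. In the opposite direction, the other genes of chromosome 4 had a median of 0.28, those of chromosome 9 had 0.20, those of chromosome 11 had 0.18 and those of chromosome 13 had 0.15. Of the 10 members called higher only without WT 1, 9 lie on those 4 chromosomes, and Ndufa13 is on chromosome 8 (0.08). Chromosomes 4, 9, 11 and 13 hold 4, 5, 4 and 6 of the 80 tested members. With all libraries, 41.6%, 36.3%, 33.3% and 24.7% of the other genes there were called higher.

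These chromosome medians did not rest on WT 1. Without that library they were -0.29 for chromosome 15, -0.27 for chromosome 17, -0.19 for chromosome 10 and 0.26 for chromosome 4. On chromosome 15 the other genes lay at a median of 0.10, 0.14 and 0.17 from their mean in WT 1, 2 and 3 and at -0.11, -0.13 and -0.14 in AXL KO 1, 2 and 3, on the log2(CPM + 0.5) scale. Chromosome 4 showed the opposite, with -0.13, -0.12 and -0.11 in WT and 0.10, 0.10 and 0.17 in AXL KO. Across the 80 nuclear members the log2 fold change and the median of the member's chromosome had a Pearson r of 0.38 and a Spearman rho of 0.59, given as a description, since members of 1 chromosome share their median and all share the 6 libraries.

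With the chromosome medians removed (each given to the AXL KO libraries as an offset in the edgeR fit), 2 nuclear members were called higher and 4 lower, where 14.9% of all genes were called higher and 15.1% lower. Of the 17 called lower at first, 3 were still called: Cox7a1 at -1.05 (adjusted p = 0.014), Atp5e at -0.46 (0.0155) and Cox4i1 at -0.35 (0.0102), the last a call that most fits leaving out 1 library did not give. Atp5g1, on chromosome 11, joined them at -0.40 (0.0207). Cox8b stayed higher at 2.53 (0.00994), and Atp5s, on chromosome 12, was called higher at 0.38 (0.0343). Cox7a1 and Cox8b lie on chromosome 7, with a median of -0.02, and Atp5e on chromosome 2, with 0.00. The removal therefore hardly bears on these 3 genes. No nuclear complex I member was then called in either direction. The median of the nuclear members hardly moved, from -0.11 to -0.10. The cause of the chromosome medians was not tested.

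**Figure D3:**
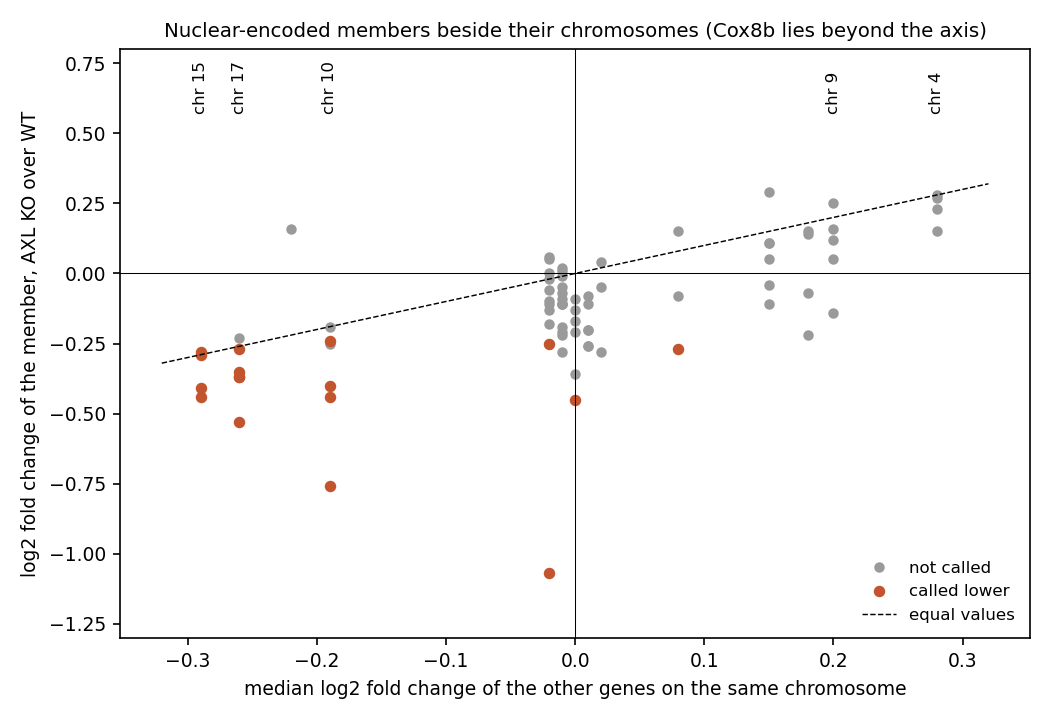
Log2 fold change of each nuclear member (vertical axis) beside the median log2 fold change of the other tested genes of its chromosome (horizontal axis). Orange points were called lower, and the dashed line marks equal values. Of the 17 orange points, 13 stand in the columns of chromosomes 10, 15 and 17, where the medians are -0.19 to -0.29.

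Members with matching promoters allow the called genes to be set beside known motifs. RefSeq promoter windows (GRCm38.p6, 250 bases before to 50 after the gene's start) matched 69 of the 85 nuclear members. GCATGCG, the core bound by NRF1, a regulator of respiratory genes, was present on either strand in 11 of the 69 members (15.9%) and in 4.01% of all 27025 genes with a window. CCGGAAG, the ETS motif bound by GABPA, was in 23.2% of members and 9.93% of all genes, and ATGGCGG, bound by YY1, was in 15.9% and 4.69%. ACGTG, the core of the hypoxia-inducible factor motif, which also lies inside other E-box motifs, was in 27.5% and 21.8%. Among the 13 members called lower that had a window, 4 held the NRF1 core, 3 the ETS motif, 1 the YY1 motif and 6 the HIF core. A match is a string of letters in this window and not a shown site.

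Shown first are windows of 3 members called lower, 1 each of complexes I, III and V, that hold the NRF1 core. Capitals mark these motifs or their reverse complements, and CGCATGCG reads as the NRF1 core on both strands. The first, of Ndufa11, is chr17:56717512-56717811 on the plus strand, the next, of Uqcr11, is chr10:80406772-80407071 on the minus strand, and that of Atp5g2 is chr15:102670998-102671297 on the minus strand.
Ndufa11: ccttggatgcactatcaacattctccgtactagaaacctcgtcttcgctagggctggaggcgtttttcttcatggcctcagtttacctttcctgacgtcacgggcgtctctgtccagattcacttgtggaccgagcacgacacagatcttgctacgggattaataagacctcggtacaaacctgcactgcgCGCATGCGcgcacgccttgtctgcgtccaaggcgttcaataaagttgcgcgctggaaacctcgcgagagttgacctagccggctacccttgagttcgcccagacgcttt
Uqcr11: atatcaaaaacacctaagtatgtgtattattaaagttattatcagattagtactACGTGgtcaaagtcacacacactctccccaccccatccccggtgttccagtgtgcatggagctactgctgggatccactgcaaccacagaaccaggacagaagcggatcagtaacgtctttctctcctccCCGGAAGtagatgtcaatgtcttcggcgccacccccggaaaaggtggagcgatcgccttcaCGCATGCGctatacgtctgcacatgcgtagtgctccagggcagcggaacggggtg
Atp5g2: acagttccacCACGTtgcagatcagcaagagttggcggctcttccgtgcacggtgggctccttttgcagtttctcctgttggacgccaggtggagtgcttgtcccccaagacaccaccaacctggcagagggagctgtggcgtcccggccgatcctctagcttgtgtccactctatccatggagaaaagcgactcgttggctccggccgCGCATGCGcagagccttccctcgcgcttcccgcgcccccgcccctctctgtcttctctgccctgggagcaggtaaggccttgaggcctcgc

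The muscle-type isoforms Cox7a1 and Cox8b, which had the largest changes in either direction, held neither the NRF1 core, the ETS motif nor the YY1 motif, and both held the HIF core. The window of Cox7a1 is chr7:30183921-30184220 on the plus strand and that of Cox8b chr7:140900397-140900696 on the minus strand.
Cox7a1: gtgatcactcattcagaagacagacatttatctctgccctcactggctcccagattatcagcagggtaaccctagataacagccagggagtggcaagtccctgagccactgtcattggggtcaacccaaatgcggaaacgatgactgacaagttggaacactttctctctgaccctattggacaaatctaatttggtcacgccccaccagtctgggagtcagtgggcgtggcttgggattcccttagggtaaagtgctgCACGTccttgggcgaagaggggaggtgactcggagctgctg
Cox8b: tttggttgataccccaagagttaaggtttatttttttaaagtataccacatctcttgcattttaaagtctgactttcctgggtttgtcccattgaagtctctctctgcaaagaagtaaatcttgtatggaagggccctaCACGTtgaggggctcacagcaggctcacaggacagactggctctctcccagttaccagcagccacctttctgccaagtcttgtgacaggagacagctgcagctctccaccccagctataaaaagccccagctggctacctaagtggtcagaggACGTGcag

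In complex I, 6 of 35 nuclear subunits were called lower (17.1%, near the 18.3% of all genes) and none higher, with a median of -0.11. No member's fall reached 1.5-fold. By symbol 2 of 12 Ndufa, 2 of 10 Ndufb, 0 of 2 Ndufc, 0 of 8 Ndufs and 2 of 3 Ndufv genes were called lower. The 8 Ndufs genes, several of which encode the iron-sulfur core that carries electrons, had a median of 0.00. Ndufa11, an accessory subunit of the membrane arm (ENSMUSG00000002379, GRCm38 chromosome 17, 56717767 to 56722141, plus strand), stood at 82.5, 60.2 and 69.6 CPM in WT and 51.3, 46.2 and 49 in AXL KO. All 3 AXL KO libraries were under the lowest WT library, with a log2 fold change of -0.53 ± 0.11 (SE, n = 3 per group; edgeR adjusted p = 0.00684). Ndufb10, another membrane-arm subunit, stood at 84.3, 73.5 and 74.6 CPM in WT and 60.8, 60.8 and 57.6 in AXL KO (-0.37 ± 0.08, edgeR adjusted p = 0.00707). Ndufv3, an accessory subunit at the NADH-oxidizing tip, was even among WT libraries at 68.8, 70.7 and 69.8 CPM and lower in AXL KO at 59.4, 53.3 and 51.7 (-0.35 ± 0.08, edgeR adjusted p = 0.00855). WT 1 is not the highest WT library for Ndufv3, and the groups are apart by more than their spread. Ndufa6 stood at 121, 109 and 106 CPM in WT and 93.7, 94.8 and 87.5 in AXL KO (-0.28 ± 0.08, edgeR adjusted p = 0.0217). Ndufb9, at 194 CPM per kb of exon the nuclear complex I member with the highest level per length, was just inside the threshold (-0.29 ± 0.10, edgeR adjusted p = 0.0412), at 245, 195 and 219 CPM in WT and 191, 179 and 168 in AXL KO. Ndufv2, an iron-sulfur subunit, was also called (-0.37 ± 0.11, edgeR adjusted p = 0.0306), and both it and Ndufb9 lost their call without any single library other than WT 2. Ndufa6 was not called without AXL KO 1 or AXL KO 3. These 6 genes lie on chromosomes 15 and 17. With chromosome medians removed their log2 fold changes ranged from 0.01 in Ndufa6 to -0.28 in Ndufa11 (edgeR adjusted p = 0.0978).

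None of the 4 subunits of complex II, which oxidizes succinate and is encoded in the nucleus alone, was called. Sdha, the flavoprotein that binds succinate, stood at 269, 243 and 254 CPM in WT and 265, 259 and 268 in AXL KO (95% interval of the log2 fold change -0.11 to 0.21). Sdhb, the iron-sulfur subunit, stood at 71.1, 53.1 and 60.2 CPM in WT and 73.4, 76.6 and 71.7 in AXL KO. The Sdhb groups did not overlap, but the difference of 0.27 ± 0.11 missed the threshold (edgeR adjusted p = 0.0794). Of the membrane anchors, Sdhc stood at 153, 129 and 137 CPM in WT and 132, 137 and 128 in AXL KO (-0.07 ± 0.08, edgeR adjusted p = 0.504). Sdhd, the other anchor, stood at 151, 124 and 128 CPM and at 147, 155 and 147 (0.16 ± 0.09, edgeR adjusted p = 0.194). Sdhb and Sdhd were called higher without WT 1. Sdhb lies on chromosome 4 and Sdhd on chromosome 9, and the median of complex II went from 0.10 to -0.06 with chromosome medians removed.

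Complex III had a median of 0.08 over its 8 nuclear members, and 1 of them was called. Uqcr11, a small accessory subunit whose promoter window is printed above, stood at 157, 115 and 125 CPM in WT and 104, 98.6 and 98.6 in AXL KO. All AXL KO libraries were lower than all WT libraries (-0.40 ± 0.11, edgeR adjusted p = 0.0216). Uqcr11 also had the highest level per length of the 8, at 181 CPM per kb. It was not called without AXL KO 1 or AXL KO 3, nor with chromosome medians removed (-0.21, edgeR adjusted p = 0.191). Without WT 1, Uqcr10, Uqcrh and Uqcrq were called higher beside it.

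In complex IV 14 of 18 nuclear members could be tested, with a median of -0.25. Of these 1 was called higher (7.14%, against 19.1% of all genes) and 4 lower (28.6%, against 18.3%). Several of its subunits exist as alternative isoforms that differ between tissues. Cox4i1, the common isoform of the largest nuclear subunit, stood at 445, 378 and 399 CPM in WT and 347, 334 and 332 in AXL KO (-0.27 ± 0.08, edgeR adjusted p = 0.026). The Cox4i1 call was kept only without WT 2 among the fits that leave out 1 library. Cox4i2, its lung-type and hypoxia-associated counterpart, was at 0.81, 0.665 and 0.767 CPM in WT and 0.496, 0.494 and 0.756 in AXL KO. The Cox4i2 difference was not distinguishable from its error (-0.36 ± 0.28, edgeR adjusted p = 0.345), and its share of the pair per length was 0.359% ± 0.0163 in WT and 0.339% ± 0.0926 in AXL KO (SD, n = 3).

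Cox7a1 (ENSMUSG00000074218, chromosome 7, 30184144 to 30186078, plus strand), the heart and muscle isoform of subunit 7a, fell the most of the members. Its level was 15.5, 10.9 and 9.35 CPM in WT and 4.75, 7.79 and 4.44 in AXL KO, with every AXL KO library under every WT library (-1.07 ± 0.25, edgeR adjusted p = 0.0108). Its counterpart Cox7a2, the isoform found in most tissues, stood at 200, 155 and 173 CPM in WT and 195, 192 and 187 in AXL KO (0.12 ± 0.10, edgeR adjusted p = 0.362). The share of Cox7a1 in the pair per length was 12%, 11% and 8.68% in WT and 4.12%, 6.69% and 4.01% in AXL KO. This share is free of library scaling, and its groups do not overlap. The Cox7a1 call held in every left-out-library fit, with values from -1.37 to -0.83. It also held with chromosome medians removed, but the median of chromosome 7 was only -0.02, so this removal hardly bears on Cox7a1.

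Cox8b (ENSMUSG00000025488, chromosome 7, 140898945 to 140900446, minus strand), the muscle isoform of subunit 8, was the single member called higher. It was rare, with 86 counts over all libraries, at 0.0736, 0.0665 and 0.279 CPM in WT and 1.1, 0.927 and 0.427 in AXL KO. The groups did not overlap (2.51 ± 0.57, edgeR adjusted p = 0.00855), although WT 3 and AXL KO 3 lie close together and the value rose to 3.47 without WT 3. Its share of Cox8a plus Cox8b per length was 0.08% ± 0.0687 in WT and 0.549% ± 0.217 in AXL KO (SD, n = 3). Of 3 muscle markers that could be tested, myoglobin (Mb) was called higher, at means of 5.8 CPM in WT and 17.1 in AXL KO. Ckm (0.83, edgeR adjusted p = 0.0595) and Pygm (-1.17, 0.0867; 0.528 and 0.231 CPM) were not called, and Pygm had the opposite sign. All 12 listed muscle markers, tested or not, summed to 6.52 to 8.01 CPM in WT and 17.5 to 21.1 in AXL KO, most of it myoglobin. The defining muscle genes Acta1, Myh4 and Ckm had 4, 8 and 104 counts over all libraries. The part of muscle cells, or of any other cell type, in the Cox8b result was not tested.

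Cox8a, the common isoform, had the highest level per length of the nuclear members at 446 CPM per kb and stood at 321, 277 and 301 CPM in WT and 264, 249 and 243 in AXL KO (-0.25 ± 0.08, edgeR adjusted p = 0.0343). The Cox8a call was lost without any single library other than WT 2. Cox6c, a small nuclear subunit of complex IV, stood at 207, 152 and 157 CPM in WT and 124, 137 and 118 in AXL KO (-0.44 ± 0.12, edgeR adjusted p = 0.0207). Without AXL KO 1 or AXL KO 3 Cox6c was not called. Cox6b1 (-0.25 ± 0.09, edgeR adjusted p = 0.063), Cox7b (-0.28 ± 0.11, 0.0726) and Ndufa4 (-0.28 ± 0.11, 0.0755), the last a complex IV subunit despite its symbol, had AXL KO libraries all below WT and missed the threshold. Cox6a1 overlapped between groups (-0.08 ± 0.11, edgeR adjusted p = 0.635). The tissue-restricted Cox6a2, Cox6b2, Cox7b2 and Cox8c had 22, 49, 7 and 2 counts over all 6 libraries and were not tested.

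**Figure D4:**
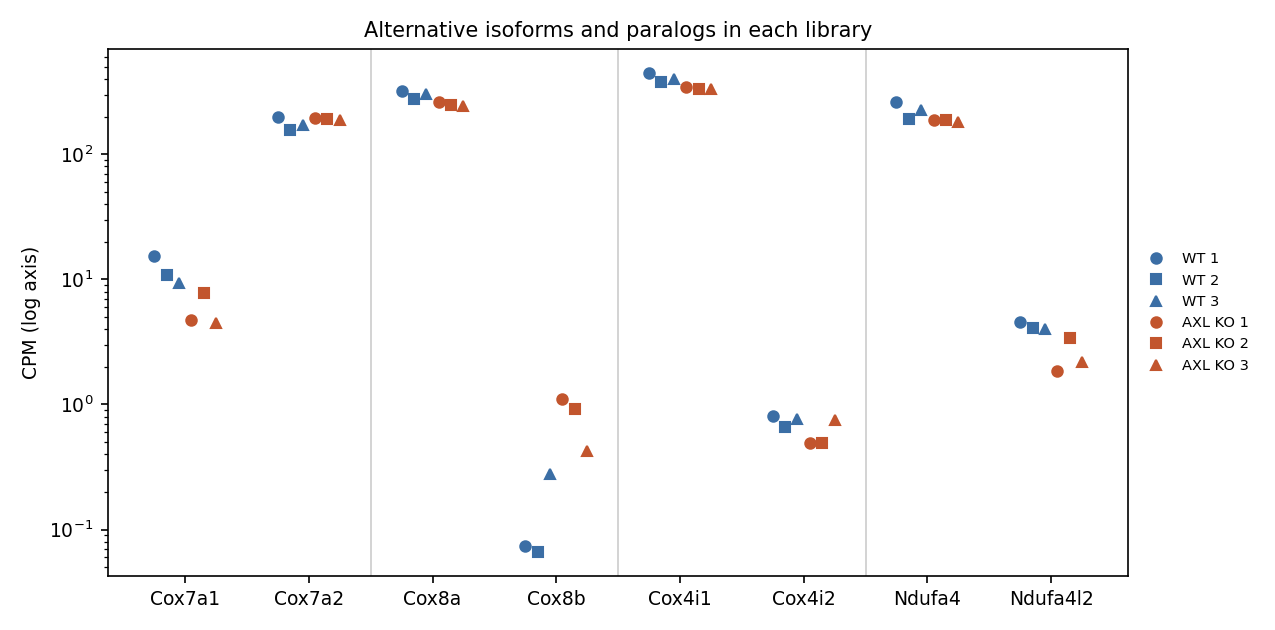
CPM of 4 pairs of isoforms or paralogs in each library (log axis, blue WT, orange AXL KO, 1 symbol per library). Cox7a1 and Cox8b separate the groups in opposite directions, while Cox7a2 and Cox4i2 overlap between them.

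Of the matched genes kept apart, Ndufa4l2, a paralog of Ndufa4 known as a target of hypoxia-inducible factor, stood at 4.56, 4.05 and 3.98 CPM in WT and 1.84, 3.4 and 2.17 in AXL KO (-0.76 ± 0.23, edgeR adjusted p = 0.0311). AXL KO 2 lay closest to WT, and the call was lost without any single library other than AXL KO 2. The share of Ndufa4l2 in Ndufa4 plus Ndufa4l2 per length was 2.31% ± 0.271 in WT and 1.64% ± 0.519 in AXL KO (SD, n = 3). These shares overlap between the groups, with AXL KO 2 at 2.23% above WT 1 at 2.13% and WT 3 at 2.18%. The pericyte markers Kcnj8 and Rgs5 fell in the same libraries, from 12.4 to 6.05 and from 155 to 77.5 CPM (edgeR adjusted p = 0.000678 and 0.00276). Of the 10 fibroblast and pericyte markers listed, 4 were called lower and 6 were not called. Endothelial markers (9 of 10) and erythroid markers (6 of 6 tested) were called lower too. The part of any of these cell types in the Ndufa4l2 result was not tested. Cox7a2l, which takes part in joining complexes III and IV into supercomplexes, stood at 149, 136 and 138 CPM in WT and 122, 117 and 112 in AXL KO (-0.27 ± 0.07, edgeR adjusted p = 0.0194). Cox7a2l was not called without WT 3 or AXL KO 3, and with the median of chromosome 17 removed it was at -0.01.

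In complex V, the ATP synthase, 4 of 15 tested nuclear members were called lower (26.7%, against 18.3% of all genes) and none higher. Their median was -0.20. Atp5l-ps1, the remaining member, had 0 counts. Atp5b, the catalytic beta subunit and at 408 CPM per kb the nuclear member of this complex with the highest level per length, stood at 1938, 1756 and 1925 CPM in WT and 1626, 1583 and 1542 in AXL KO (-0.24 ± 0.07, edgeR adjusted p = 0.0299). The Atp5b call was lost without any single library other than WT 2. Atp5d and Atp5e, the delta and epsilon subunits of the central stalk, fell in parallel. Atp5d stood at 248, 216 and 216 CPM in WT and 178, 164 and 160 in AXL KO (-0.44 ± 0.08, edgeR adjusted p = 0.00389). Atp5e stood at 201, 146 and 162 CPM in WT and 129, 122 and 120 in AXL KO (-0.45 ± 0.11, edgeR adjusted p = 0.0134). Atp5e, on chromosome 2 where the other genes had a median of 0.00, kept its call with chromosome medians removed but not without AXL KO 3 (edgeR adjusted p = 0.0552). Atp5d, on chromosome 10, was not called with chromosome medians removed (-0.25, edgeR adjusted p = 0.0512).

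The proton-carrying c subunit is encoded by Atp5g1, Atp5g2 and Atp5g3, which give the same mature protein. Atp5g2 (ENSMUSG00000062683, chromosome 15, 102662864 to 102672352, minus strand) had the smallest adjusted p of all members, at 64, 59.7 and 63.2 CPM in WT and 46.6, 46.7 and 47 in AXL KO (-0.41 ± 0.07, edgeR adjusted p = 0.0022). Its libraries within a group were nearly equal. With the median of chromosome 15 removed the difference was -0.13 (edgeR adjusted p = 0.203). Atp5g3, the main source of the subunit at 81.3% of the 3 genes per length in WT, stood at 589, 446 and 527 CPM in WT and 475, 456 and 458 in AXL KO (-0.17 ± 0.10, edgeR adjusted p = 0.217). Atp5g1 stood at 94.4, 75.1 and 88.2 CPM in WT and 80.8, 66.7 and 73.6 in AXL KO (-0.22 ± 0.11, edgeR adjusted p = 0.134). The share of Atp5g2 was 12.8% ± 1.15 in WT and 10.9% ± 0.281 in AXL KO (SD, n = 3).

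Per length, the tested mitochondrially encoded members had a median of 3484 CPM per kb, against medians of 48.3 in complex I, 52.4 in complex II, 98.2 in complex III, 115 in complex IV and 94.9 in complex V for nuclear members. The 13 mitochondrial members took 4.86%, 4.34% and 4.79% of gene counts in WT and 3.91%, 4.39% and 4.17% in AXL KO. The means were 4.66% ± 0.282 and 4.16% ± 0.240 (SD, n = 3), and AXL KO 2 lies above WT 2, so the groups overlap. Nuclear members took 1.36% ± 0.152 and 1.20% ± 0.0265. The ratio of mitochondrial to nuclear counts was 3.45 ± 0.227 in WT and 3.46 ± 0.197 in AXL KO, so the 2 genomes' totals stood in the same proportion within their spread. Alignments that were not unique, which the counting set aside, made up 27.3 to 29.0% of counted lines in WT and 25.7 to 26.9% in AXL KO. Their part in the mitochondrial values was not tested.

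Of the 12 mitochondrial members tested 4 were called lower (33.3%, against 18.3% of all genes) and none higher (median -0.20). The 4 are mt-Nd1, mt-Nd2 and mt-Nd3 of complex I and mt-Cytb, the only mitochondrially encoded subunit of complex III. mt-Nd1 (ENSMUSG00000064341, mitochondrial positions 2751 to 3707, heavy-strand transcript) stood at 3765, 3067 and 3943 CPM in WT and 2203, 2777 and 2421 in AXL KO (-0.54 ± 0.12, edgeR adjusted p = 0.00753). Its neighbour mt-Nd2 stood at 3049, 2706 and 3199 CPM in WT and 1987, 2250 and 2107 in AXL KO (-0.50 ± 0.09, edgeR adjusted p = 0.00291). In both genes all AXL KO libraries were below all WT libraries, and both calls held under every alternative tried. One of these, the removal of chromosome medians, gives mitochondrial genes no offset and so does not bear on them. mt-Cytb stood at 5353, 4872 and 5372 CPM in WT and 3823, 4431 and 3810 in AXL KO (-0.37 ± 0.09, edgeR adjusted p = 0.0108), and was not called without AXL KO 3 (adjusted p = 0.0528). mt-Nd3 stood at 599, 462 and 533 CPM in WT and 379, 467 and 409 in AXL KO. Its groups overlap, and it was called with all libraries (-0.35 ± 0.11, edgeR adjusted p = 0.0392) but not without WT 1, WT 3, AXL KO 1 or AXL KO 3.

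The other mitochondrial members were not called. mt-Co1, the catalytic subunit of complex IV and at 7698 CPM per kb the most abundant member, stood at 11590, 11371 and 11578 CPM in WT and 12029, 12562 and 12226 in AXL KO. Every AXL KO library was above every WT library, but the difference was small (0.09 ± 0.07, edgeR adjusted p = 0.325). mt-Co2 stood at 4977, 4151 and 4589 CPM in WT and 3814, 4151 and 3965 in AXL KO (-0.20 ± 0.09, edgeR adjusted p = 0.0981), and mt-Co3 overlapped (-0.10 ± 0.09, edgeR adjusted p = 0.374). mt-Atp8 and mt-Atp6, the complex V subunits read from 1 shared RNA, had values of 0.28 ± 0.12 (edgeR adjusted p = 0.0961) and 0.02 ± 0.08 (0.866), and share 43 bases, so reads there cannot be assigned to either. mt-Nd4 was at -0.21 ± 0.08 (edgeR adjusted p = 0.0616), with AXL KO below WT in every library, and mt-Nd5 at -0.20 ± 0.12 (0.214). mt-Nd6, the only member on the light strand, was counted 3384 times and overlapped (-0.19 ± 0.21, edgeR adjusted p = 0.5). It shares 14 bases with mt-Nd5 on the other strand, and whether the counting used strand is not given in the sources used here. mt-Nd4l had 1 count over all libraries, although it shares a precursor with mt-Nd4, which it overlaps by 7 bases.

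Along the heavy strand the differences followed the order of the genes only in part. The 2 ribosomal RNAs at its start, which are not members, were lower by more than any mitochondrial member. mt-Rnr1 had a log2 fold change of -1.04 and mt-Rnr2 one of -1.38 (edgeR adjusted p = 0.000191 and 0.000195). Per length, mt-Rnr1 and mt-Rnr2 stood at means of only 507 and 359 CPM per kb in WT, against 3753 for mt-Nd1. The part of library preparation in these ribosomal RNA counts was not tested. mt-Nd1 and mt-Nd2 follow, then mt-Co1 at 0.09, and mt-Cytb, at the far end, was again at -0.37. A ratio to mt-Co1 does not depend on library scaling. For mt-Nd1 the ratio per length was 0.524, 0.435 and 0.55 in WT and 0.296, 0.357 and 0.32 in AXL KO. For mt-Cytb it was 0.624, 0.579 and 0.627 in WT and 0.429, 0.476 and 0.421 in AXL KO. Ratios did not overlap between the groups for mt-Nd1, mt-Nd2, mt-Co2, mt-Co3, mt-Nd3, mt-Nd4, mt-Nd5 and mt-Cytb, all lower in AXL KO. They overlapped for mt-Atp8, mt-Atp6 and mt-Nd6. The divisor mt-Co1 was itself above WT in every AXL KO library, which lowers every ratio. On their own CPM, mt-Co2, mt-Co3, mt-Nd3 and mt-Nd5 overlapped between the groups. In CPM, groups were apart in 52.1% of all genes tested, and no such share was taken for ratios. Of the genes with ratios apart, only mt-Nd1, mt-Nd2, mt-Nd4 and mt-Cytb were also apart on their own CPM. The part of the divisor in the other ratios was not tested.

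**Figure D5:**
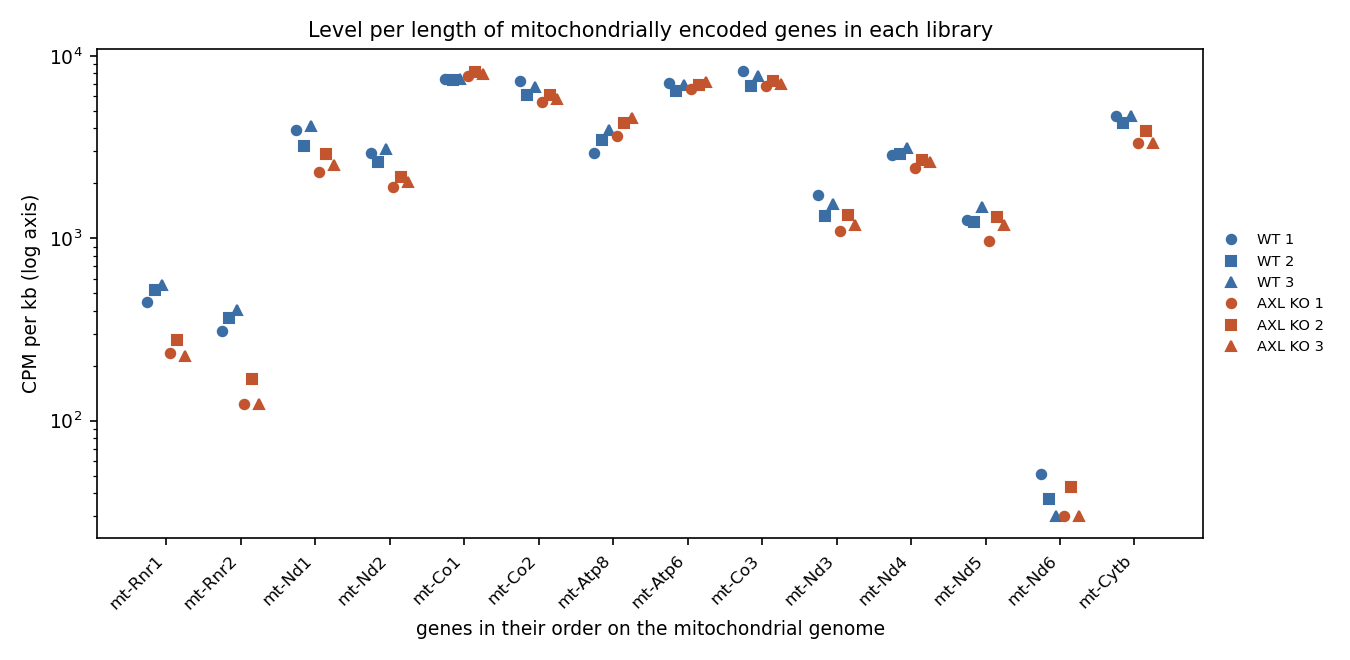
Level per length (CPM per kb, log axis) of mitochondrially encoded genes in each library, in the order of the genes on the mitochondrial genome. Blue symbols are WT, orange symbols AXL KO, and mt-Nd4l, with 1 count, is left out. AXL KO lies below WT in every library at mt-Rnr1, mt-Rnr2, mt-Nd1, mt-Nd2, mt-Nd4 and mt-Cytb. It lies slightly above WT in every library at mt-Co1, and the groups overlap at mt-Atp6.

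Genes around the chain were read as counts beside the same background of 19.1% higher and 18.3% lower. The values here and in the lists that follow come from the fit without chromosome medians removed. The part of the chromosome medians in these calls was not tested. Of 15 electron carrier and further subunit genes, 2 of the ubiquinone pathway were higher, Coq9 at 0.56 (edgeR adjusted p = 0.00145) and Coq2 at 0.39 (0.0164), and 2 were lower. The lower ones were Cyc1, the cytochrome c1 subunit of complex III that the symbol rule leaves out (-0.41, edgeR adjusted p = 0.00364), and 2010107E04Rik (-0.41, 0.0147). Cycs, cytochrome c itself, was not called (-0.18, edgeR adjusted p = 0.337).

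Assembly factors went both ways. For complex I 4 of 15 were higher, among them Ecsit (0.45) and Acad9 (0.25), and 2 lower, Ndufaf5 (-0.35) and Ndufaf7 (-0.25). For complexes II, III and V 3 of 11 were higher, Lyrm7 (0.95 to 1.89 CPM), Ttc19 (0.39) and Atpaf1 (0.47), and 4 lower, among them Sdhaf1 (-0.71) and Uqcc2 (-0.54). For complex IV Cox18 was higher (0.39) and 3 of 22 were lower, the copper chaperone Sco2 (-0.76), Higd1a (-0.68) and Cox19 (-0.29).

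Of 22 genes of mitochondrial DNA replication and transcription 2 were called in each direction. Pnpt1, the polynucleotide phosphorylase of the mitochondrial RNA degradosome, rose from 27.8 to 55.9 CPM (1.01, edgeR adjusted p = 6.38e-05), and Tbrg4 was higher at 0.31. Polrmt, the mitochondrial RNA polymerase, was lower at -0.35 (edgeR adjusted p = 0.0217), as was Lrpprc, which stabilizes mitochondrial messenger RNA, at -0.40 (0.00379). Tfam, which packages mitochondrial DNA, was not called (-0.23, edgeR adjusted p = 0.0826). Among 12 nuclear regulators Esrrg was higher (0.27) and Yy1 (-0.48), Ppard (-0.59) and Myc (-0.43) were lower. The coactivators Ppargc1a (0.13, edgeR adjusted p = 0.328) and Ppargc1b (-0.16, 0.721) were not called.

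Of 74 mitochondrial ribosome genes 2 were higher and 12 lower (median -0.06), with Mrps34 at -0.59, Mrps18b at -0.54 and Mrpl28 at -0.54. In the tricarboxylic acid cycle 2 of 14 were higher (Suclg2 at 0.30 and Ogdh at 0.31) and 3 lower (Dlst at -0.22, Cs at -0.25 and Dld at -0.27). At pyruvate entry Dlat was higher (0.24), and the kinases Pdk3 (-0.41) and Pdk4 (-1.14), which switch off pyruvate dehydrogenase, were lower, of 12 tested. Of 24 import and outer membrane genes Timm8b was higher (0.35) and 8 were lower, among them Vdac2 (-0.57), Samm50 (-0.46) and Tomm40 (-0.38). Of 6 nucleotide carrier and uncoupling genes 4 were lower and none higher. They include Ckmt1, a mitochondrial creatine kinase (-0.72, edgeR adjusted p = 0.000117), the phosphate carrier Slc25a3 (-0.38, 0.00785) and the ADP/ATP carrier Slc25a5 (-0.46, 0.013), which supply complex V with its substrates and pass on its product.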

How the data were processed

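Total RNA of 6 tumour grafts was sequenced on an Illumina instrument, per the labels, and processed with CASAVA 1.8, TopHat2 2.0.10, HTSeq 0.5.3 and DESeq2 1.4.5 on GRCm38, per the submitters' processing notes. The deposited files hold raw read counts per gene for each library, and 5 lines that name no gene were left out of library sizes. A deposited comparison table holds a signal per library, which equals the counts divided by a size factor, the authors' log2 fold change (WT over KO, sign turned here), a Wald score, and p-values, plain and adjusted. The library signal and the score were not used for results.

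Counts were fitted here in R 4.3.3 with edgeR 4.0.16 (TMM factors, filterByExpr with a minimum count of 10 and a minimum total of 15, quasi-likelihood test, 2 groups of 3, Benjamini-Hochberg adjustment over 14850 genes of 21716 with any count). CPM use TMM-scaled library sizes, and CPM per kb divide by the union exon length of GENCODE M21 on GRCm38, which also gave coordinates. The fit was tested on simulated data. Alternatives used DESeq2 1.42.0, limma-voom (limma 3.58.1), other size factors and filters, a replicate block, leaving out each library and, chosen after seeing the data, removal of chromosome medians. Library positions use log2(CPM + 0.5). Permutation of 3 against 3 libraries cannot go below p = 0.1 and was not used. Intervals cover the spread between libraries. Named were all mitochondrial and complex II members, in each other complex the 4 called members with the smallest p in each direction, all members with isoforms or paralogs, the member with the highest level per length, members too low to test, and at most 3 called genes per direction of each pathway list, with others named where a count needed it. Members and lists were chosen with earlier results of these data known. In 26 nuclear members, 5 of them called (Atp5d, Cox4i1, Cox6c, Ndufa11 and Ndufa4l2), exons overlap a gene on the opposite strand, and such reads cannot be told apart if strand was not used.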

Additional observations from a re-analysis of the deposited data

How the results depend on the processing

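With 3 libraries per group, leaving out 1 library gave 1 to 11 nuclear-encoded members called higher and 6 to 25 called lower, and 2 to 5 mitochondrially encoded members called lower. By complex these ranges were 0 to 4 higher and 3 to 8 lower in complex I, 0 to 2 higher in complex II, 0 to 3 higher and 0 to 1 lower in complex III, 1 to 7 lower in complex IV, and 0 to 1 higher and 2 to 8 lower in complex V. All upper limits of the counts called higher came without WT 1, and all upper limits of the counts called lower, apart from complex III, came without WT 2. With chromosome medians removed, chosen after seeing the data, 2 nuclear members were called higher and 4 lower, with 0 lower in complex I, 0 in complex III, 2 in complex IV and 2 in complex V. The median of complex II went to -0.06 and the value of Ndufa6 to 0.01. At an adjusted p under 0.01 the counts called lower were 5 nuclear and 2 mitochondrial, with 3 in complex I, 0 in complex III, 0 in complex IV and 2 in complex V, and 3074 of all genes were called. With genes under a mean log2 CPM of 2 left out, Cox8b was not tested, so that 0 nuclear members and 0 of complex IV were called higher. With all counted lines as denominator, mitochondrially encoded genes took 3.07% in WT and 2.77% in AXL KO. Replicate numbers did not pair the libraries: same-numbered deviations had correlations of -0.0578, -0.125 and 0.0877. The fit with the replicate block called 4831 genes, 15 nuclear and 3 mitochondrial members lower, 1 nuclear member higher, and 1 mitochondrial member higher (mt-Atp8, edgeR adjusted p = 0.0352). Under the block mt-Nd3 had an edgeR adjusted p of 0.091. The calls of mt-Nd1 and mt-Nd2 held under every alternative, and that of Cox8b in each one that tested it. Removal of chromosome medians gives mitochondrial genes no offset and hardly bears on Cox8b. The causes of these changes were not tested. Members with few counts, such as Cox8b and Cox4i2, are limited by depth.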
